A study of Mus musculus with 8 samples.

Results

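Integrins are the main receptors by which leukocytes hold on to matrix and to other cells. The members here were 10 listed leukocyte integrin genes, Itga4, Itga5, Itga6, Itgal, Itgam, Itgav, Itgb1, Itgb2, Itgb5 and Itgb7, and every probe whose gene symbol in the probe table was one of them was taken. This gave 11 probes for 9 of the 10 genes, among 25697 probes and 18138 gene symbols on the array. Itgal, the alpha chain of LFA-1, had no such row and was not analysed here. The probe of Itga4 was not detected on any of the 8 arrays and was not tested. The remaining 10 probes, for 8 genes, were tested in all comparisons.

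Each integrin is a pair of 1 alpha and 1 beta chain, and the pair decides which ligand is bound. On myeloid cells the beta2 chain pairs with CD11b (Itgam) to form Mac-1, a receptor for complement fragment iC3b, fibrinogen and ICAM-1. The beta1 chain pairs with alpha4, alpha5 or alpha6 in receptors for VCAM-1, fibronectin or laminin, the alphaV chain pairs with beta5 and other beta chains to bind vitronectin, and the beta7 chain pairs with alpha4 or alphaE. Talin and kindlin-3 bind the tails of beta chains and switch integrins to the form that holds ligand, which is how a stimulus such as lipopolysaccharide (LPS) can change adhesion without new receptor.

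The arrays held RNA from bone marrow-derived macrophages of female mice aged 8 weeks, grown in GM-CSF for 7 days. WT cells came from C57bl/6J mice. iNOS-/- cells lacked inducible nitric oxide synthase, and per the study's methods such mice were of the strain B6.129P2-Nos2tm1Lau/J. Cells of each genotype were left unstimulated or were driven to the M1 state by 6 h in LPS at 200 ng/ml and IFN-γ at 10 ng/ml. Each of the 4 groups that this gives had 2 Illumina bead arrays. Nothing in the labels states that the arrays of a group are separate mice or cultures, so p-values measure only the spread between these arrays, which may be technical. In such bulk RNA, fewer cells of a type and less RNA per cell cannot be told apart.

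The values are bead intensities, scaled between arrays and given as log2. A probe was detected where its detection p-value, the share of negative control beads that were as bright, was under 0.05, and a difference was called at an adjusted p under 0.05 from limma over 13868 tested probes. Between 46.0% and 49.3% of probes were detected per array, and the median absolute difference between both arrays of a group was 0.16 to 0.19 on the log2 scale. The probe of Nos2, the targeted gene, was not detected without stimulation and read 7.45 and 7.04 on the WT M1 arrays and 7.52 and 7.69 on the arrays labelled iNOS-/- M1. The Nos2 probe was thus not lower on the arrays labelled iNOS-/-, whether it lies in the deleted part of the gene is not given in the sources used here, and each direction between genotypes below rests on the labels. All 8 macrophage markers on the array were detected in each group, and the markers of T and NK cells, B cells and stromal cells were at or near background, with summed intensities of at most 44.0, 10.4 and 18.0 per array against 23670 to 36876 for the macrophage markers.

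The probes of Itgb7 and of both Mac-1 chains are shown 5′ to 3′ as in the probe table, since Itgb7 and the Mac-1 chains are described below from a single probe each. They lie at transcript bases 2367 (Itgb7), 2146 (Itgb2) and 3522 (Itgam) and onward, and no stretch of 20 bases of any integrin probe was found in a probe of another gene (0 shared).

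Itgb7 probe: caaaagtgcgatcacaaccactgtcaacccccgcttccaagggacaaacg

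Itgb2 probe: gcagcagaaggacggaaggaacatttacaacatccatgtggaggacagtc

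Itgam probe: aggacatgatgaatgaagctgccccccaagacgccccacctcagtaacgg

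Itgb5 fell, Itga5 rose and Itgb7 turned in opposite directions with stimulation, and the promoters of these 3 genes are shown from RefSeq (GRCm38.p6), 250 bases before to 50 bases after the start and read 5′ to 3′ on the strand of the gene. They are Itgb5 at chr16:33829415-33829714 on the plus strand, Itga5 at chr15:103366742-103367041 on the minus strand and Itgb7 at chr15:102231886-102232185 on the minus strand. Capitals mark the Sp1 box GGGCGG and the PU.1 core GAGGAA on either strand. PU.1 is a factor that myeloid cells depend on, and Sp1 binds many promoters without a TATA box.

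Itgb5 promoter: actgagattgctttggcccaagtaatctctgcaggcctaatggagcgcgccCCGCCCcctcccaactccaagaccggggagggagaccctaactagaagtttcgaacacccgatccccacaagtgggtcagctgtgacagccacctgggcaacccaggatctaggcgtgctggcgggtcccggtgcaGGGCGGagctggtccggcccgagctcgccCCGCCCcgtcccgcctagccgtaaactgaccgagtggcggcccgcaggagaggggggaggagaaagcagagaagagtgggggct

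Itga5 promoter: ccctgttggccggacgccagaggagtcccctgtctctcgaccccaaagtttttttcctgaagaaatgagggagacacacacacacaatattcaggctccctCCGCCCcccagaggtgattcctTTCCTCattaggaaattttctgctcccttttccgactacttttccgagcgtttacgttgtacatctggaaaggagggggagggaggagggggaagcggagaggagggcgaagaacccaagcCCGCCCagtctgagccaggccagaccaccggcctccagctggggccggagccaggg

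Itgb7 promoter: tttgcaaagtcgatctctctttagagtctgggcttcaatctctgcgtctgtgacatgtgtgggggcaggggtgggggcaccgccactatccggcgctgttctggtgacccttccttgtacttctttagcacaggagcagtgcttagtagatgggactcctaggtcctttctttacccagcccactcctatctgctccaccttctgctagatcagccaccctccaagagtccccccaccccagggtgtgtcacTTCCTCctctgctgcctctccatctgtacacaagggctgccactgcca

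Promoters were found for 7 of the 10 listed genes. The Itgb5 window held 3 Sp1 boxes and no PU.1 core, that of Itga5 held 2 Sp1 boxes and 1 PU.1 core, and that of Itgb7 held 1 PU.1 core and no Sp1 box. Both motifs are common, in 35.7% (Sp1) and 28.3% (PU.1) of 32851 RefSeq promoters of the same length. Of the other windows, Itgam held 3 PU.1 cores, 2 before and 1 after the start, Itgav held 2, Itgb1 held 1, and each of these 3 held 1 Sp1 box. None of the 7 windows held the AP-1 motif TGANTCA, the interferon element ISRE (GAAA repeated after 2 free bases), the GAS element TTCNNNGAA, the E-box CACGTG or the NF-kB motif, which stand in 7.81%, 3.44%, 8.3%, 7.15% and 8.46% of all such promoters. A match or its absence describes only the letters of these windows.

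**Figure D1:**
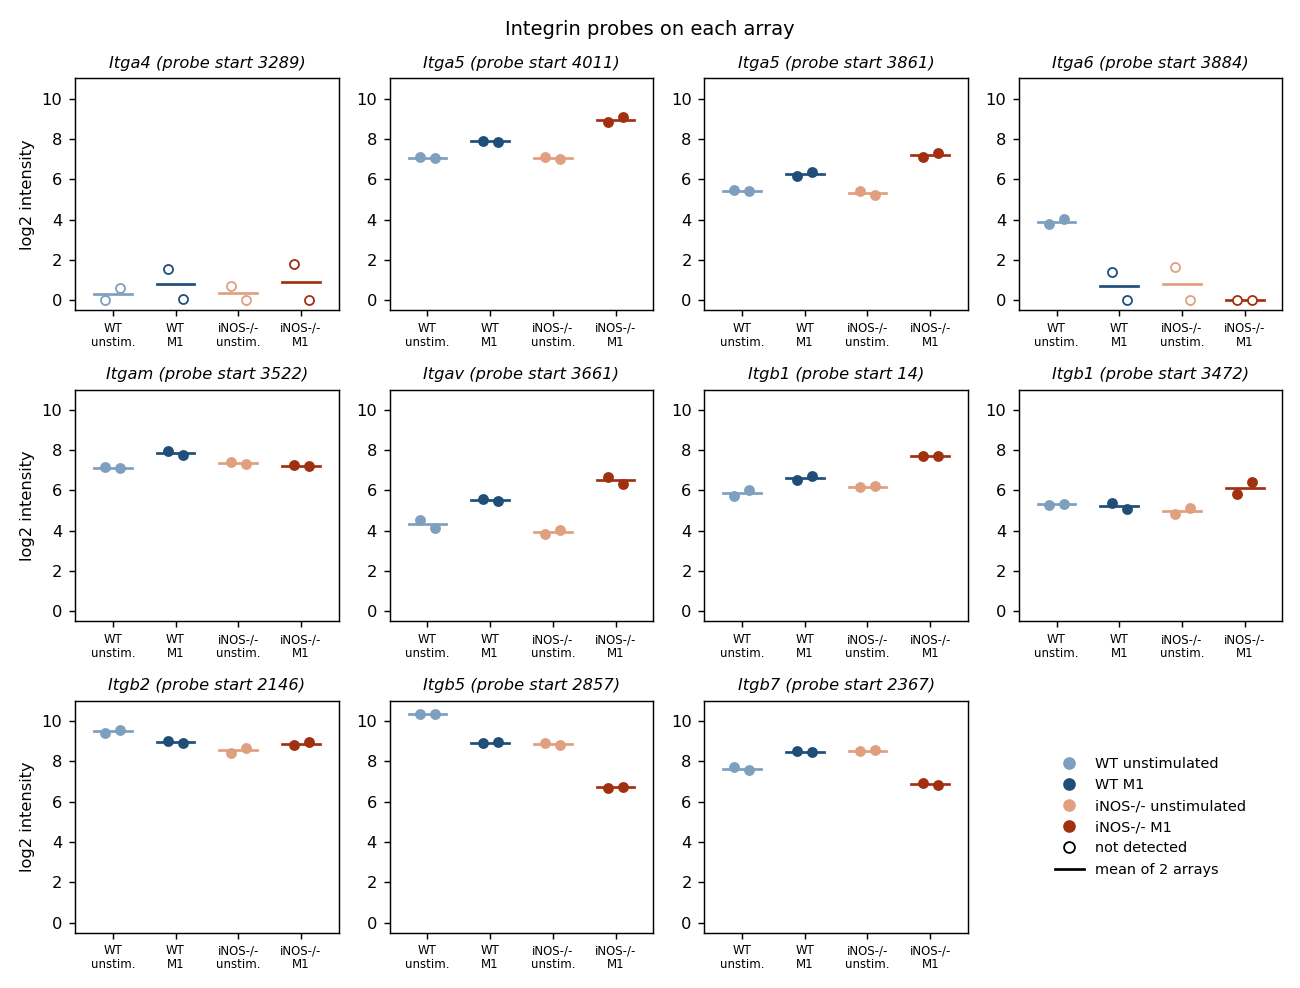
log2 intensity (vertical axis) of the 11 integrin probes on each of the 8 arrays, by group. Points are arrays, open points were not detected, and lines are means of 2 arrays. Itgb5 steps down from 10.33 in WT unstimulated to 6.71 in iNOS-/- M1, and Itga5 is brightest in iNOS-/- M1.

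The question between the M1 groups was how loss of iNOS changes the activated cell. Among the integrin genes, Itga5, Itgav and Itgb1 were higher and Itgb5, Itgb7 and Itgam lower on the arrays labelled iNOS-/- M1 than on WT M1. Of 10 probes tested, 8 were called, 5 higher and 3 lower, where 48.5% of all tested probes were called (24.2% higher, 24.3% lower). The median over the 8 genes was -0.37, or -0.05 with Itga6 set to 0 because neither group detected it, against 0 over all probes. Over the 10 integrin probes, where Itga5 and Itgb1 have 2 each, the median was 0.41, so its sign depends on the unit.

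Itgb5, the beta chain of the vitronectin receptor alphaV beta5, which also takes part in the uptake of dying cells, had the largest difference between the M1 groups of the 8 genes. Its log2 intensity was 10.33 and 10.34 in WT unstimulated, 8.88 and 8.94 in WT M1, 8.88 and 8.79 in iNOS-/- unstimulated, and 6.68 and 6.73 in iNOS-/- M1. The WT unstimulated arrays stood highest and the iNOS-/- M1 arrays lowest, while WT M1 and iNOS-/- unstimulated arrays overlapped. Itgb5 was 4.60-fold lower in iNOS-/- M1 than in WT M1 (log2 -2.20, standard error 0.08, adjusted p = 0.000125) and 2.83-fold lower in iNOS-/- unstimulated than in WT unstimulated (log2 -1.50, adjusted p = 0.000292). Stimulation lowered it 2.69-fold in WT (adjusted p = 0.000286) and 4.37-fold in iNOS-/- (adjusted p = 5.04e-05). The fall in iNOS-/- was deeper by 0.70 on the log2 scale (standard error 0.12, adjusted p = 0.00722). Beside this, the summed intensity of 10 dendritic cell markers was lowest where Itgb5 was highest, from 849 to 851 in WT unstimulated to 16494 to 17135 in WT M1, 13975 to 14854 in iNOS-/- unstimulated and 36930 to 38468 in iNOS-/- M1. Of 9 tested markers, 5 were higher and 1 lower in iNOS-/- M1 than in WT M1, where 24.2% and 24.3% of all probes were. In iNOS-/- 6 had a lower and 0 a higher response, where 21.1% and 20.8% of all probes had. Itgax, one of the markers, did not follow the sum (its values are given with the other integrin chains). The part of such cells in the Itgb5 values was not tested.

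Itgav, the alpha chain that pairs with beta5, ran against it after stimulation. It read 4.54 and 4.13 in WT unstimulated, 5.59 and 5.49 in WT M1, 3.83 and 4.02 in iNOS-/- unstimulated, and 6.67 and 6.32 in iNOS-/- M1. Both stimulated groups lay above both unstimulated groups, and none of the 4 groups overlapped another. Stimulation raised Itgav 2.31-fold in WT (adjusted p = 0.0079) and 5.94-fold in iNOS-/- (adjusted p = 0.000334), and the difference in response was 1.36 (standard error 0.27, adjusted p = 0.0134). In iNOS-/- M1 it was 1.94-fold above WT M1 (adjusted p = 0.0117), a call that was lost without iNOS-/- M1 replicate 1 (adjusted p = 0.0511) or WT M1 replicate 2 (adjusted p = 0.0581). Between the unstimulated groups the difference was -0.41 (adjusted p = 0.176).

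Itga5, the alpha chain of the classic fibronectin receptor alpha5 beta1, had 2 probes with like values. The brighter one, at transcript base 4011, read 7.12 and 7.03 in WT unstimulated, 7.91 and 7.84 in WT M1, 7.11 and 7.01 in iNOS-/- unstimulated, and 8.82 and 9.07 in iNOS-/- M1. The unstimulated groups overlapped, WT M1 lay above them and iNOS-/- M1 above all. Stimulation raised Itga5 1.74-fold in WT (adjusted p = 0.00588) and 3.70-fold in iNOS-/- (adjusted p = 0.000183), with a difference in response of 1.09 (standard error 0.17, adjusted p = 0.00538). Between the M1 groups the difference was 2.10-fold (adjusted p = 0.00138). The probe at base 3861 gave log2 changes of 0.80 in WT, 1.87 in iNOS-/- and 0.96 between the M1 groups, all called.

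Itgb1, the beta chain shared by the fibronectin, laminin and VCAM-1 receptors, was also higher in iNOS-/- M1, by both of its probes. The probe at transcript base 14 read 5.71 and 6.03 in WT unstimulated, 6.52 and 6.70 in WT M1, 6.14 and 6.21 in iNOS-/- unstimulated, and 7.72 and 7.71 in iNOS-/- M1. The probe at base 3472 read 5.30 and 5.31, 5.37 and 5.06, 4.83 and 5.10, and 5.83 and 6.41 in the same order of groups. Both probes were highest in iNOS-/- M1, with no overlap with WT M1. Between the M1 groups they differed by 1.11 (adjusted p = 0.00192) and 0.91 (adjusted p = 0.0248) on the log2 scale.

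In WT the 2 Itgb1 probes disagreed on stimulation. The probe at base 14 rose by 0.74 (standard error 0.13, adjusted p = 0.0113), a call lost without WT M1 replicate 2 (adjusted p = 0.0581) and in a fit of the 4 WT arrays alone (adjusted p = 0.0575). The probe at base 3472 changed by -0.09 (standard error 0.23, adjusted p = 0.8), and its WT groups overlapped. The 12 bases aggcccgccgac stand at both ends of the probe at base 14, and whether this matters for its values was not tested. In iNOS-/- both probes rose, by 1.54 (adjusted p = 0.00052) and 1.16 (adjusted p = 0.01). The difference in response was 0.80 (adjusted p = 0.022) and 1.24 (adjusted p = 0.0313). For the probe at base 14 it fell short of the threshold when any of 5 arrays was left out, with adjusted p between 0.0559 and 0.0714. These were either iNOS-/- M1 array, either iNOS-/- unstimulated array or WT M1 replicate 1.

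Itga4 and Itga6, which also pair with beta1, were near background. The Itga4 probe gave at most 3.1 intensity units on any array before scaling, with detection p-values from 0.208 to 0.634. Itga6, a laminin receptor chain, was detected only on the WT unstimulated arrays, at 3.76 and 4.03, and on none of the other 6. Its signal was at least 2.19-fold lower in WT M1 and at least 3.02-fold lower in iNOS-/- unstimulated than in WT unstimulated. The limma calls were of the log2 differences -3.19 (adjusted p = 0.0187) and -3.07 (adjusted p = 0.0222), which include undetected values, and not of these bounds. Both calls were lost with a floor of 16 (adjusted p = 0.372 and 0.39) and without either WT unstimulated array (adjusted p from 0.0698 to 0.0977). The first was also lost without WT M1 replicate 2 (adjusted p = 0.0749), and the second without iNOS-/- unstimulated replicate 2 (adjusted p = 0.074). Itga6 passed the filter only through the group where it was high.

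**Figure D2:**
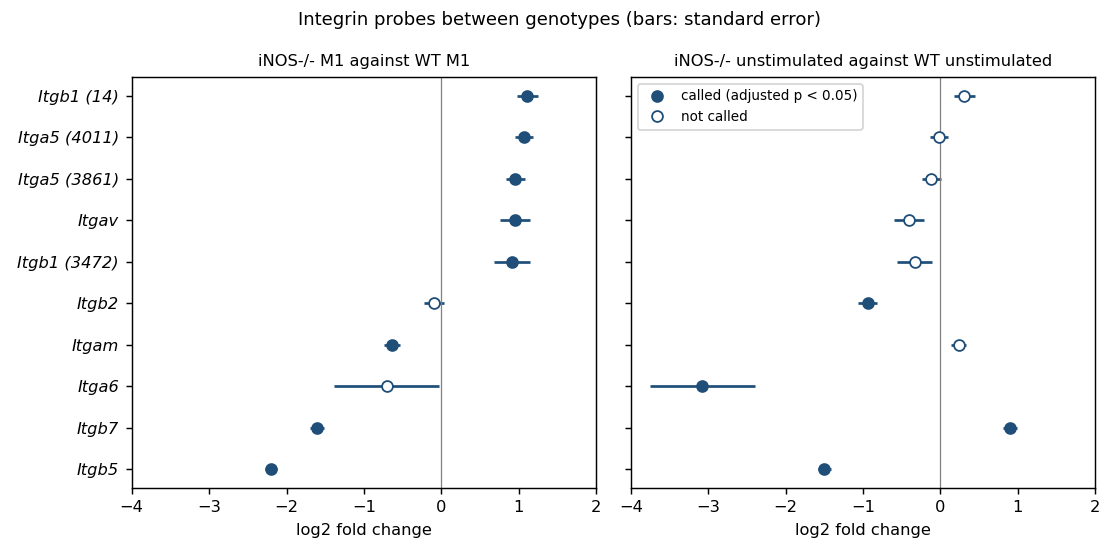
log2 fold change (horizontal axis) of the 10 tested integrin probes, iNOS-/- against WT, in M1 cells (left) and unstimulated cells (right). Bars are standard errors and filled points were called. Itga5, Itgav and Itgb1 lie at 0.91 to 1.11 in M1 cells and were not called in unstimulated cells, while Itgb7 lies at -1.61 and then at 0.90.

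The chains of Mac-1 did not move together. Itgam read 7.17 and 7.09 in WT unstimulated, 7.96 and 7.78 in WT M1, 7.39 and 7.33 in iNOS-/- unstimulated, and 7.26 and 7.20 in iNOS-/- M1. The WT M1 arrays stood above all others. Itgam rose 1.67-fold on stimulation in WT (adjusted p = 0.00446), whereas in iNOS-/- the change was -0.13 (standard error 0.10, adjusted p = 0.328). The difference in response was -0.87 (standard error 0.14, adjusted p = 0.00663), and Itgam was 1.55-fold lower in iNOS-/- M1 than in WT M1 (adjusted p = 0.00468).

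Itgb2, the beta chain of LFA-1, Mac-1 and the CD11c integrin, was highest without stimulation in WT. It read 9.42 and 9.56 in WT unstimulated, 9.02 and 8.93 in WT M1, 8.42 and 8.67 in iNOS-/- unstimulated, and 8.81 and 8.94 in iNOS-/- M1. The M1 groups overlapped, and the 2 unstimulated groups lay at the ends of the range. Itgb2 was 1.92-fold lower in iNOS-/- unstimulated than in WT unstimulated (adjusted p = 0.00455), and the M1 groups differed by -0.10 (standard error 0.13, adjusted p = 0.564). In WT it fell by 0.51 with stimulation (adjusted p = 0.0288), a call lost in the fit of the 4 WT arrays and without any one of these, with adjusted p from 0.0522 to 0.125. In iNOS-/- the change was 0.33 (adjusted p = 0.0789), and it was called with an intensity trend in the variance (adjusted p = 0.0119) or with only probes detected on all 8 arrays (adjusted p = 0.042). The difference in response was 0.84 (adjusted p = 0.0151), and it fell short under quantile normalization (adjusted p = 0.0592) and without WT M1 replicate 2 or WT unstimulated replicate 2 (adjusted p = 0.0503 and 0.0509). Granulocytes also carry Mac-1, and the summed intensity of the 10 granulocyte markers on the array was 1280 to 1293 in WT unstimulated, 1924 to 2029 in WT M1, 1840 to 1896 in iNOS-/- unstimulated and 6931 to 7332 in iNOS-/- M1. Of 8 tested markers, 4 were higher and 0 lower in iNOS-/- M1 than in WT M1, where 24.2% and 24.3% of all probes were. The other 4 were not called, so the sum does not stand for every marker. The part of granulocytes in the Itgam and Itgb2 values was not tested.

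Itgb7, the beta chain that pairs with alpha4 or alphaE and is known for homing of lymphocytes to the gut, turned in opposite directions in the 2 genotypes. It read 7.69 and 7.54 in WT unstimulated, 8.49 and 8.46 in WT M1, 8.49 and 8.55 in iNOS-/- unstimulated, and 6.90 and 6.84 in iNOS-/- M1. The WT M1 and iNOS-/- unstimulated arrays overlapped at the top, and the iNOS-/- M1 arrays stood lowest. Stimulation raised it 1.82-fold in WT (adjusted p = 0.00207) and lowered it 3.13-fold in iNOS-/- (adjusted p = 0.000126). The difference in response, -2.51 (standard error 0.13, adjusted p = 0.000304), was the largest called one among the 8 genes. Itgb7 was 1.87-fold higher in iNOS-/- unstimulated than in WT unstimulated (adjusted p = 0.00181) and 3.05-fold lower in iNOS-/- M1 than in WT M1 (adjusted p = 0.000259). Each of these 5 calls held under all alternatives run.

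Markers of dividing cells also had their highest levels in WT M1 and iNOS-/- unstimulated, but were lowest in WT unstimulated, where Itgb7 was above its iNOS-/- M1 level. Their summed intensity over the 11 on the array was 669 to 752 in WT unstimulated, 2100 to 2241 in WT M1, 2507 to 2514 in iNOS-/- unstimulated and 914 in both iNOS-/- M1 arrays. Of 9 tested, 8 were higher in WT M1 than in WT unstimulated, and 7 were lower in iNOS-/- M1 than in iNOS-/- unstimulated, where 20.2% and 23.8% of all probes were called in these directions. The 3 probes whose log2 values were most like those of Itgb7 over the 8 arrays, among 9687 detected on all of them, were Ccnb1, Tfrc and Hirip3, with Pearson's r of 0.996, 0.995 and 0.995. Ccnb1 is cyclin B1, a driver of mitosis, and Tfrc is the transferrin receptor. The part of dividing cells in the Itgb7 values was not tested. For Itgb5 the most like were Gadd45g, Lhfpl2 and 1110032E23Rik, with r of 0.9997, 0.9989 and 0.9986. These r describe 8 arrays of 4 groups and were picked as the highest, so they carry no test.

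The partner of beta7 on mucosal lymphocytes and some dendritic cells, alphaE (Itgae, CD103), and its ligand E-cadherin (Cdh1) are shown beside Itgb7. The brightest probe of Itgae, at transcript base 3775, read 7.04 and 7.24 in WT M1, 8.98 and 9.05 in iNOS-/- unstimulated, and 6.61 and 6.64 in iNOS-/- M1, and it was not detected in WT unstimulated (1.92 and 0). By this probe and on the main scaling, Itgae was at least 91.6-fold higher in iNOS-/- unstimulated than in WT unstimulated. In WT M1 it was at least 24.9-fold higher than in WT unstimulated. The limma tests were of the log2 differences 8.05 (adjusted p = 0.00073) and 6.18 (adjusted p = 0.00159), which include undetected values, and not of these bounds. Under neqc these differences were smaller, at 4.86 and 2.92 on the log2 scale. Between the unstimulated groups the bounds at bases 3275, 2683 and 2682 were also smaller, at 9.35-fold, 14.9-fold and 10.6-fold. The bound at base 3777 was 93.1-fold. At base 3775 Itgae fell by 2.39 on the log2 scale with stimulation in iNOS-/- (adjusted p = 0.0216). The M1 groups differed there by -0.52 (standard error 0.60, adjusted p = 0.516, and called at -0.40 under neqc). Of its 6 probes, 5 were tested. Between the M1 groups all 5 differences were negative, and only those at bases 3777 and 2682 were called. The probe at base 3777 read 7.16 and 7.06 in WT M1 and 6.54 and 6.59 in iNOS-/- M1, a called difference of -0.54 (standard error 0.08, adjusted p = 0.00414). The probe at base 2682 was not detected in iNOS-/- M1 and was at least 2.00-fold lower there. Its test was of the log2 difference -1.67 (adjusted p = 0.000367) and not of this bound. The probes at bases 2683 and 3275 differed by -0.73 (adjusted p = 0.188) and -0.16 (adjusted p = 0.891). All 5 were called higher in iNOS-/- unstimulated and in WT M1 than in WT unstimulated, and 4 of 5 were called lower with stimulation in iNOS-/-, the exception being the probe at base 3275 (adjusted p = 0.0923). Cdh1 read 3.30 and 2.72, 6.44 and 6.37, 7.72 and 7.70, and 6.09 and 5.69 in the order unstimulated WT, M1 WT, then unstimulated and M1 iNOS-/-. It rose by 3.40 with stimulation in WT and fell by 1.82 in iNOS-/-, with a difference in response of -5.22 (standard error 0.33, adjusted p = 0.00048). Itgb7, Itgae (by the probe at base 3775) and Cdh1 thus each had a called rise in WT and a called fall in iNOS-/-. Of 9 tested dendritic cell markers, 8 were higher and 0 lower in iNOS-/- unstimulated than in WT unstimulated, where 15.9% and 16.2% of all probes were. With stimulation 8 rose and 0 fell in WT (20.2% and 14.9% of all probes). In iNOS-/- 6 rose and 1 fell (26.2% and 23.8%). Their summed intensities are given with Itgb5, and the part of such cells here was not tested.

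**Figure D3:**
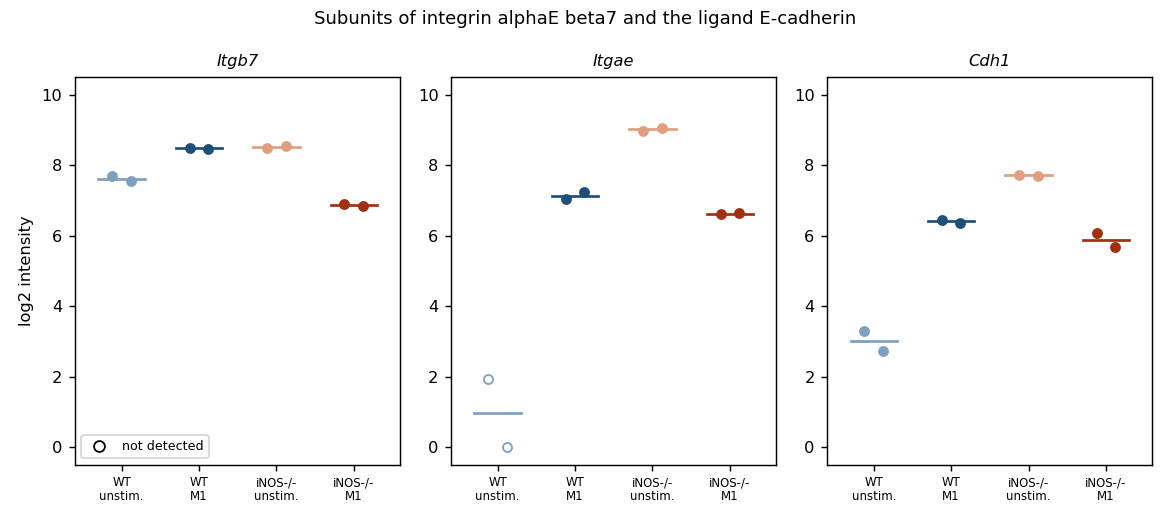
log2 intensity (vertical axis) of Itgb7, its partner Itgae and the ligand gene Cdh1 on each array by group. Lines are means of 2 arrays and open points were not detected. In all 3 panels the iNOS-/- unstimulated arrays lie above the iNOS-/- M1 arrays, and for Itgae WT unstimulated was not detected.

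Without stimulation, Itgb7 was higher and Itgb5 and Itgb2 were lower on the arrays labelled iNOS-/-. Between the unstimulated groups 4 of 10 probes were called, 1 higher and 3 lower, where 32.1% of all probes were called (15.9% higher, 16.2% lower). The third lower one was Itga6, which passed the filter only through WT unstimulated and whose call was lost under several alternatives, as given above. The median was -0.21 over the 8 genes and -0.23 over the 10 integrin probes, against -0.02 over all probes.

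Stimulation with LPS and IFN-γ changed 9 of 10 probes in WT, 6 higher and 3 lower, where 35.1% of all probes were called (20.2% higher, 14.9% lower). It changed 7 in iNOS-/-, 5 higher and 2 lower, where 50% were called (26.2% higher, 23.8% lower). The lower calls in WT included Itga6, which passed the filter only through WT unstimulated. Its call was lost under several alternatives, as given above. The calls in WT of Itgb2 and of the brighter Itgb1 probe were also lost under some alternatives. The gene medians were 0.74 in WT and 0.10 in iNOS-/- (0.17 with Itga6 at 0), against 0.07 and 0.04 over all probes. Over the 10 integrin probes the medians were 0.74 in WT and 0.74 in iNOS-/-, so the lower gene median in iNOS-/- depends on the unit. The difference in response was called for 9 of 10 probes, 6 positive and 3 negative, where 41.9% of all probes were called (20.8% positive, 21.1% negative). The comparisons share arrays, so their counts are not independent of each other. Itga5, Itgav and Itgb1 had a more positive response in iNOS-/- than in WT, Itgb5 fell further, Itgam rose in WT alone by the call, and Itgb7 reversed.

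**Figure D4:**
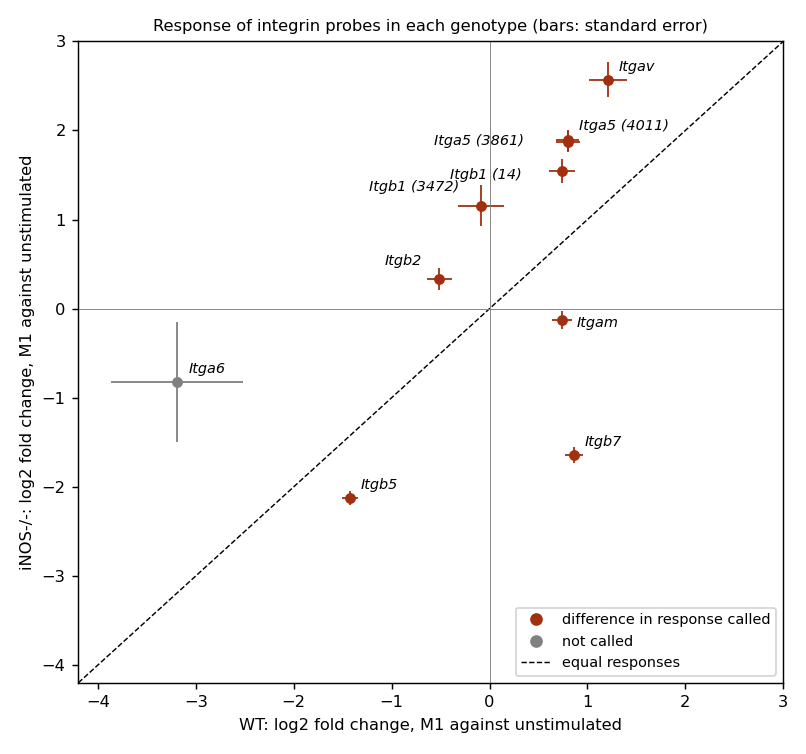
log2 fold change of M1 against unstimulated cells in WT (horizontal axis) and in iNOS-/- (vertical axis) for the 10 tested integrin probes. Bars are standard errors, and the dashed line marks equal responses. Itgb7 lies at 0.86 in WT and -1.65 in iNOS-/-, and Itgav at 1.21 and 2.57.

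Other integrin chains were mostly near background. Of 15 on the array, 6 were tested. Between the M1 groups 1 was called, Itgb8, the beta chain of a receptor that activates TGF-β, which read 3.72 and 3.15 on the iNOS-/- M1 arrays and was detected on no other, so it passed the filter only through that group and nothing is read from its difference. Between the unstimulated groups 4 were called higher in iNOS-/-, where 15.9% of all tested probes were. They were Itga1, Itga2b, Itgad and Itgae, the first and the third named here after their values were seen. Itga2b was not detected in WT unstimulated and read only 3.05 and 4.02 in iNOS-/- unstimulated. That was at least 2.05-fold higher on the main scaling and higher by 0.61 on the log2 scale under neqc. Itgad was detected on 2 of 8 arrays, with group means of 0.85, 1.10, 2.93 and 1.66 in the order unstimulated WT, M1 WT, then unstimulated and M1 iNOS-/-, so nothing is read from its call. Itga1 was detected on all 8. Itgax, the CD11c chain that pairs with beta2, had group means of 7.58, 7.97, 7.96 and 7.56 and was called only for the difference in response, at -0.78 (adjusted p = 0.0375). Under neqc it was called in the M1 (-0.39), the unstimulated (0.38) and the iNOS-/- stimulation (-0.46) comparisons too.

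Of 30 genes of integrin activation and signalling tested, 11 were higher and 9 lower in iNOS-/- M1 than in WT M1, where 48.5% of all tested probes were called (24.2% higher, 24.3% lower), and the list's median was 0.14. Fermt3, which encodes kindlin-3, read 9.50 and 9.44, 9.81 and 9.90, 9.74 and 9.68, and 8.77 and 8.71 in the order unstimulated WT, M1 WT, then unstimulated and M1 iNOS-/-. Its difference between the M1 groups was -1.12 (standard error 0.08, adjusted p = 0.000496), having risen by 0.39 in WT and fallen by 0.97 in iNOS-/-. Rassf5, which encodes the Rap1 effector RAPL, differed by -1.77 between the M1 groups, and its difference in response was -2.24. Lpxn (leupaxin, an adaptor of focal adhesions) differed by -1.44 between the M1 groups, and Parvg (parvin gamma, which binds integrin-linked kinase) differed in response by -1.79.

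The kinase Src went the other way, from 5.95 and 5.85 in iNOS-/- unstimulated to 8.30 and 8.27 in iNOS-/- M1, against 6.81 and 6.88 to 7.44 and 7.51 in WT. Its difference in response was 1.75 (standard error 0.12). Tln1, which encodes talin, was not called (-0.17 between the M1 groups, adjusted p = 0.774, with its sign turned under 3 other scalings). Fermt3, Rassf5, Lpxn, Parvg and Src kept these calls under neqc, quantile normalization and a line with an intercept.

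**Figure D5:**
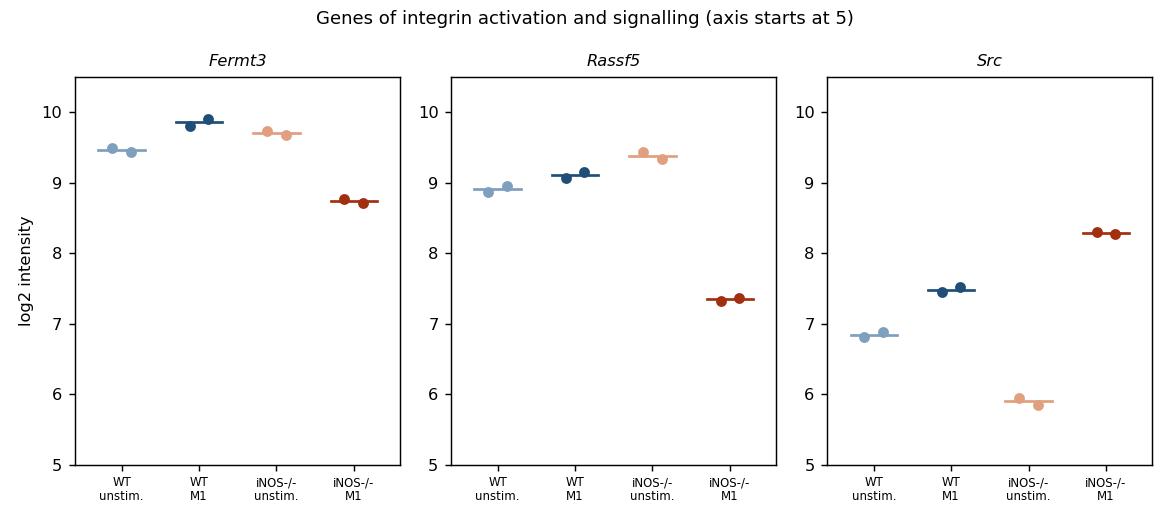
log2 intensity (vertical axis, starting at 5) of Fermt3, Rassf5 and Src on each array by group, with lines at the means of 2 arrays. Fermt3 and Rassf5 are lowest in iNOS-/- M1, where Src is highest.

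Of 14 ligand genes tested, 5 were higher and 1 lower in iNOS-/- M1 than in WT M1 (Tgfb1 was the lower one, named after its value was seen). Both directions together are no larger a share than the 48.5% of all probes called, where 24.2% were higher and 24.3% lower. The list's median was 0.52, or 0.14 with genes that a group did not detect at their bounds. Icam1, the ligand of LFA-1 and Mac-1, read 11.58 and 11.61 in WT M1 and 12.66 on both iNOS-/- M1 arrays, a difference of 1.07 (standard error 0.08, adjusted p = 0.000468) that was 0.56 under neqc and quantile normalization. It rose with stimulation by 2.26 in WT and 2.51 in iNOS-/-, and the difference in response of 0.25 was not called (adjusted p = 0.129), while under neqc and quantile normalization it was called at -0.40 and -0.42. C3, the source of the Mac-1 ligand iC3b, was higher by 1.19 between the M1 groups (0.65 under neqc and quantile normalization), and Thbs1, which encodes thrombospondin-1, by 0.77. Tnc (tenascin C) was higher by 3.07 (2.25 under neqc). It read only 4.16 and 3.61 in WT M1 and was not detected without stimulation. Jam2 read 0 (not detected) and 3.85 in WT M1 and 6.45 and 5.86 in iNOS-/- M1, a difference of 4.23 (adjusted p = 0.0462) whose size depends on the floor and was 1.95 under neqc. Vcam1, the ligand of alpha4 beta1, rose in both genotypes, by 5.09 in WT, where 1 of 2 unstimulated arrays did not detect it, and by 4.73 in iNOS-/- (2.50 and 3.80 under neqc). Its M1 difference of 2.38 was not called (adjusted p = 0.109) but was called under neqc (2.11) and with an intercept (2.30), and its difference in response of -0.36 was not called but turned positive under neqc, where it was called (adjusted p = 0.00887), and with an intercept (0.88), where it was not. Spp1 (osteopontin, a ligand of alphaV integrins) was not called between the M1 groups (-0.13), and under neqc and quantile normalization it was (-0.67 and -0.68).

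Of 18 genes of membrane partners and integrin traffic, 7 were higher and 5 lower in iNOS-/- M1 than in WT M1, where 48.5% of all tested probes were called (24.2% higher, 24.3% lower), and the median was 0.10. Slc3a2 (CD98 heavy chain, which binds beta1 tails) read 6.34 and 6.33, 6.47 and 6.44, 6.17 and 6.62, and 8.08 and 8.09 in the same order of groups, so the iNOS-/- M1 arrays alone stood apart. Its difference between the M1 groups was 1.63 (standard error 0.16, adjusted p = 0.000915). Cd151, a tetraspanin that binds laminin receptors, differed by -1.38 between the M1 groups. Rab4a, a GTPase of rapid recycling, was detected on every WT array and on no iNOS-/- array. It passed the filter only through the WT groups, so nothing is read from its calls. On the main scaling it was at least 2.36-fold lower in M1 and at least 5.08-fold lower in unstimulated iNOS-/- cells. Under neqc these differences were smaller, at -0.79 and -1.19 on the log2 scale. Plaur, the urokinase receptor that pairs with Mac-1, and the tetraspanin gene Cd53 differed in response by 1.16 and 1.39 (0.76 and 0.74 under neqc, 0.78 and 0.75 under quantile normalization). The rise of Cd53 in iNOS-/- by 0.69 was no longer called under neqc and quantile normalization, at 0.08 in both.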

How the data were processed

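Scanner output deposited by the authors gave the mean bead intensity of each probe on each of 8 arrays, not normalized between arrays, with its detection p-value. The labels name GenomeStudio and limma 3.14.4. The labels give the array as MouseRef-8 v2.0 in one place and MouseWG-8 v2.0 in another. The study's methods name background subtraction, which the file header does not, and 25.2% to 27.2% of deposited intensities were below 0 per array, so none was subtracted further.

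From these values, every array was brought to the scale of the mean array by a robust line through rank-invariant probes (rank shift under 0.05, ranks above 0.5 and below 0.9, MASS 7.3.60.0.1), values under 1 were set to 1, and log2 was taken. Probes detected on at least 2 arrays were fitted in limma 3.58.1 (R 4.3.3) as a one-way model of 4 groups, with Benjamini-Hochberg adjustment over 13868 probes. The methods also name rank-invariant scaling, replacement of negative values and limma; the rank limits were chosen here. The procedure was tested on simulated data, in which smaller changes were missed more often than larger ones and a first bound on recovery was narrowly missed and replaced. A probe that was not detected in a group has only a bound there, set by the lowest detected value of each array. Such bounds hold for the main scaling only and were not tested. Where a gene had several probes, the brightest stands for it and for the listed integrin genes the others are given beside it. Other genes are named as the 3 largest called M1 differences and differences in response per list, plus Itgax, Tln1, Fermt3, Icam1, Vcam1 and Spp1. Some genes that this rule covers are not reported here. Members and lists were chosen with earlier results of these data known. Same-numbered arrays did not deviate together (correlations -0.04 to 0.02), so numbers were not used as pairs. Alternatives were neqc, quantile normalization, a line with an intercept, a floor of 16, other detection filters, fits of 4 arrays, an intensity trend, a replicate block, averaged probes and each array left out. The number of arrays limits the precision.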

Additional observations from a re-analysis of the deposited data

Results flagged for a closer look

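The response to LPS and IFN-γ differed between genotypes for 7 integrin genes by the interaction term, each value being the iNOS-/- response minus the WT response on the log2 scale. It was 1.09 for Itga5, -0.87 for Itgam, 1.36 for Itgav, 0.80 for Itgb1, 0.84 for Itgb2, -0.70 for Itgb5 and -2.51 for Itgb7. Adjusted p-values from limma ran from 0.000304 for Itgb7 to 0.022 for Itgb1. The same term was called for 41.9% of all tested probes. The groups of 2 arrays are too small for a test of outlying arrays.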

How the results depend on the processing

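Over all alternatives, the number of integrin probes called ran from 6 to 8 between the M1 groups, 3 to 4 between the unstimulated groups, 6 to 9 for stimulation in WT, 5 to 8 in iNOS-/- and 7 to 10 for the difference in response. With each array left out in turn the ranges were 6 to 8, 3 to 4, 6 to 9, 6 to 7 and 7 to 8. In the ranges over all alternatives, averaged probes were counted by gene. The other detection filters changed how many probes were tested, so those ranges mix totals. With the replicate block the counts were 8, 4, 9, 7 and 9, as without it, and no integrin call changed. Of 667 alternative values for single genes, 633 kept direction and side of the threshold, 27 lost a call and 4 gained one, and the report names these beside the genes apart from Itga6, whose difference between unstimulated groups was also lost without the detection filter (adjusted p = 0.0597) and in the 4-array fit (0.0544), and whose difference in response was gained under neqc (0.60) and without iNOS-/- unstimulated replicate 1 (3.19). The other 3 turned the sign of the uncalled Itga5 difference between the unstimulated groups (-0.02), to 0.010 with an intercept, 0.033 without iNOS-/- unstimulated replicate 2 and 0.024 without WT unstimulated replicate 1, within a range of -0.069 to 0.033 over the arrays left out. The cause was not tested. Where leaving an array out left 1 in a group, that array was taken to vary as the rest do. Signals near background limit Itga6, Itga4 and Itgav.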
